A study of Homo sapiens with 12 samples.

Results

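The 10 genes described here encode membrane-type matrix metalloproteinases, gelatinases and 2 further secreted enzymes of the same family. They were taken as a fixed list (MMP2, MMP9, MMP11, MMP14, MMP15, MMP16, MMP17, MMP19, MMP24 and MMP25) out of 20037 protein-coding genes placed on the autosomes, X and Y by RefSeq (GRCh38.p14). A summit, the position of highest signal within an accessible site, was counted for a gene when it lay inside the gene or within 10 kb of it. All 10 symbols were found, and they held 51 of the 180794 summits on these chromosomes. The label of the list covers 8 of its genes: MMP11 and MMP19 are neither anchored to the membrane nor gelatinases.

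The samples were HT1080 cells, an established human fibrosarcoma line, migrating for 48 h in rat tail type I collagen at 1.7 mg/mL (High concentration), 1.0 mg/mL (Medium concentration) or 0.3 mg/mL (Low concentration), with 4 ATAC-seq libraries in each of the 3 groups. All 12 libraries came from cells given 20 µM GM6001, a broad inhibitor of matrix metalloproteinase activity, so every group carried the inhibitor and no group went without it. ATAC-seq reads open chromatin through the insertions of a transposase. The deposited peak list was pooled over the series and named no library or group, so the values below describe all 12 libraries together. They have no replicates, the depth of each library is unknown, and no concentration was compared with another. A site open in few cells and a site weakly open in all cells cannot be told apart in such data.

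Matrix metalloproteinases are zinc-dependent enzymes that cut the proteins of the extracellular matrix. The membrane-type enzymes stay at the cell surface, by a transmembrane segment in MMP14, MMP15, MMP16 and MMP24 and by a glycosylphosphatidylinositol (GPI) anchor in MMP17 and MMP25. MMP14 cuts fibrillar collagen where the cell touches it and, together with the inhibitor TIMP2, activates the secreted precursor of the gelatinase MMP2. The gelatinases MMP2 and MMP9 degrade denatured collagen and basement membrane collagen. MMP11 is activated inside the cell by furin, and MMP19 is a secreted enzyme with a broad range of matrix substrates.

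Strand and start sequence in the RefSeq promoter table were used for 4 of the genes, MMP11, MMP14, MMP15 and MMP24. The start of each was therefore a single position, and for the other 6 genes both gene ends stood in for it. The 250 bases before the start (RefSeq, GRCh38.p14) are shown for these 4 because MMP14 and MMP15 had a summit at the start whereas MMP11 and MMP24 had none within 1000 bp. The starts of MMP24OS and EIF6, genes just past the far end of MMP24, are shown with them because the strongest summits of the MMP24 window lay there. Capitals mark exact matches, on either strand, to the letters of 7 motifs: AP-1 (TGANTCA), ETS (CCGGAAG), SP1 (GGGCGG), the CCAAT box (CCAAT), the TATA box (TATAAA), TEAD (GGAATG) and RUNX (TGTGGT). Sequences run 5′ to 3′ in the direction of the gene, from chr14:22836335-22836584 (+) for MMP14, chr16:58025504-58025753 (+) for MMP15, chr22:23772599-23772848 (+) for MMP11, chr20:35226440-35226689 (+) for MMP24, chr20:35278123-35278372 (-) for MMP24OS and chr20:35284773-35285022 (-) for the outermost of the EIF6 starts in the table.
MMP14: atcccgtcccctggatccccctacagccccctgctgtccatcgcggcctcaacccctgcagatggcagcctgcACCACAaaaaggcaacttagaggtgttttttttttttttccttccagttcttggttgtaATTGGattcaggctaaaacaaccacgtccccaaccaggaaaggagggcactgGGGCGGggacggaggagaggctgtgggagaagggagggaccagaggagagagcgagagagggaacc
MMP15: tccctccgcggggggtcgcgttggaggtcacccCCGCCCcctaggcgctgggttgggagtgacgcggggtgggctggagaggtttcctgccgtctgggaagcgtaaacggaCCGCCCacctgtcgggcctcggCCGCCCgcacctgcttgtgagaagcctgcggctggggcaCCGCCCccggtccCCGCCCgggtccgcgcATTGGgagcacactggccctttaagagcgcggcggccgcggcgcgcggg
MMP11: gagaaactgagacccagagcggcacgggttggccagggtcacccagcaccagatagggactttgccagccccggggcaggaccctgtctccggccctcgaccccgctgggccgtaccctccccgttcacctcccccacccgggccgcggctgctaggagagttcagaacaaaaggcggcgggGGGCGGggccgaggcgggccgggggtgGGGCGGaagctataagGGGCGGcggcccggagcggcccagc
MMP24: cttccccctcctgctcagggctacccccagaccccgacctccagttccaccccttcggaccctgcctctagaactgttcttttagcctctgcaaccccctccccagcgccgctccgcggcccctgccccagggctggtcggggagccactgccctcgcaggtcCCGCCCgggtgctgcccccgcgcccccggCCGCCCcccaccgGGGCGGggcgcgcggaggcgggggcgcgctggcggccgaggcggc
MMP24OS: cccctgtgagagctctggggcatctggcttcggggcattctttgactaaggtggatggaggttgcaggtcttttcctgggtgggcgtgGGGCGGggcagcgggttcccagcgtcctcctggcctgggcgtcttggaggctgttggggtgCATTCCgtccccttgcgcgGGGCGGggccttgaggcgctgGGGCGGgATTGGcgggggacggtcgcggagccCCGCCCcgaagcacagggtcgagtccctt
EIF6: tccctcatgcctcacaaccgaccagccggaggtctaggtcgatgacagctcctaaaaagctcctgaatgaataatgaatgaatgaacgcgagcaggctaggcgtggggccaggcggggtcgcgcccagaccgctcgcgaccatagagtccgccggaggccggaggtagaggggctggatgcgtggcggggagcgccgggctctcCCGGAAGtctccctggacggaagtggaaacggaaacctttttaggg

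These starts differed in base composition. Over the 300 bases from 250 before to 50 after the start, GC content was 55.0% at MMP14, 75.3% at MMP15, 74.3% at MMP11 and 80% at MMP24, against a median of 62.3% over 22199 starts of coding genes. The MMP24 start stood at percentile 96.8 of GC content among them. SP1 letters occurred 5 times at MMP15, 4 times at MMP11 (1 of them after the start and so not printed), 3 times at MMP24 and once at MMP14. At least 1 match to these letters is present at 45% of all 35116 promoters of this length, and at 56.3% of those of coding genes. MMP14 and MMP15 each held 1 CCAAT box, present at 34.6% of all promoters, and MMP14 also held 1 match to the RUNX letters, present at 13.1%. None of the 4 held the AP-1, ETS, TATA or TEAD letters in these 300 bases, which occur at 7.71%, 10.3%, 11.5% and 14.0% of all promoters respectively. The MMP24OS start held 4 SP1 matches, a CCAAT box and a TEAD match, and the EIF6 start held an ETS match. No matches to different motifs overlapped in the printed sequences.

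GC content did not separate the 2 genes with a start summit from the 2 without. Of coding starts with a GC content of 50 to 60%, 56.9% had a summit within 1000 bp, of those with 60 to 70% it was 75.3%, and of those with 70 to 80%, 83.1%. For starts at least as GC-rich as that of MMP24 the share was 76.5% (579 of 757), and for those at least as GC-rich as that of MMP11 it was 81.7%. MMP24 and MMP11 were thus among the minority of such GC-rich starts without a summit, while MMP14, with a GC content below the median, had one.

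**Figure D1:**
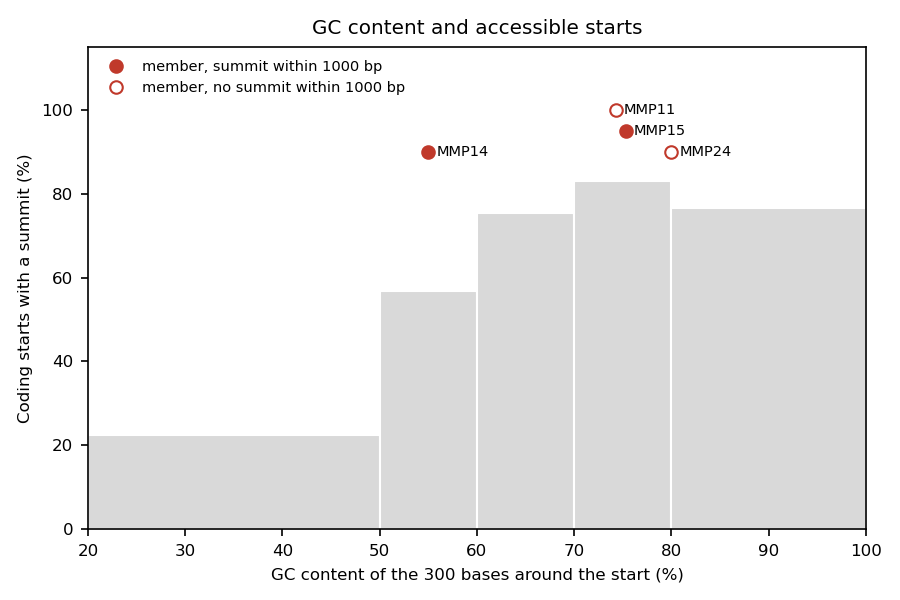
Share of coding gene starts with a summit within 1000 bp (bars, y axis in %) by GC content of the 300 bases around the start (x axis in %, the lowest bar holding all starts below 50%). Circles mark the GC content of the 4 members with a known strand, filled where a summit was present (MMP14, MMP15) and open where none was (MMP11, MMP24); their height has no meaning.

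All 10 genes had at least 1 summit inside the gene or within 10 kb, a property of 89.8% of coding genes, so this alone does not set the genes apart. They held between 3 and 8 summits, with a median of 5.5 beside 3 over all coding genes. Per 10 kb of gene and flanks the median was 1.07 summits beside 0.589 over all coding genes. The density was highest at MMP14 (2.25 per 10 kb, percentile 96.9 of coding genes) and MMP9 (2.17, percentile 96.4). It was lowest at MMP16, whose 295.5 kb held 8 summits with its flanks (0.254 per 10 kb, percentile 23.2). Of the 51 summits, 22 lay inside a gene and 29 in the flanks. MMP19 was the only one of the 10 with no summit inside it, and 66.1% of coding genes had at least 1 inside.

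Start summits were about as frequent at these genes as at coding genes in general, and their enrichment was lower. A summit lay within 1000 bp of the start (or of either end where no strand was used) at 7 of 10 genes, close to the 65.9% of all coding genes. The counts were 2 of 4 for genes with a strand, beside 67.6% of such coding genes, and 5 of 6 for genes judged at either end, beside 59.4%. The genes without such a summit were MMP2, MMP11 and MMP24. The highest enrichment near the start, the authors' fold of signal over the local background at the summit, had a median of 3.79 over the 7 genes. Over the 13207 coding genes with a summit there it was 11.9. The 3.79 was the value at the higher-coordinate end of MMP17, and its lower-coordinate end had 2.81. All 7 genes lay below the coding-gene median, as 50% of coding genes do by construction, at percentiles from 6.17 to 35.1. They were also all below the medians of their own kind, 12.3 for genes with a strand and 9.83 for genes without. In fragments the same comparison gave a median of 188 for the 7 genes and 768 for the coding genes with a start summit. These are pileups, the number of overlapping units at the summit, recovered from the deposited enrichment and p-value. The sources do not say whether these units were whole fragments or single reads, and they are called fragments here.

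The 7 values fell in a sequence with few clear steps. MMP16 had the highest enrichment at an end, 9.37 (95% counting interval 8.71 to 10.1), followed by MMP14 with 8.37 (7.73 to 9.05), and these intervals overlap. MMP15 had 4.73 (4.09 to 5.46), clearly apart from MMP14. MMP17 had 3.79 (3.27 to 4.37), MMP19 2.76 (2.30 to 3.28), MMP9 2.65 (2.16 to 3.22) and MMP25 2.22 (1.76 to 2.77), and each overlaps the interval of its neighbour in this order. The intervals are exact Poisson intervals of the pileup over a fixed background. They cover counting error only, and fragments amplified by PCR may not be independent.

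**Figure D2:**
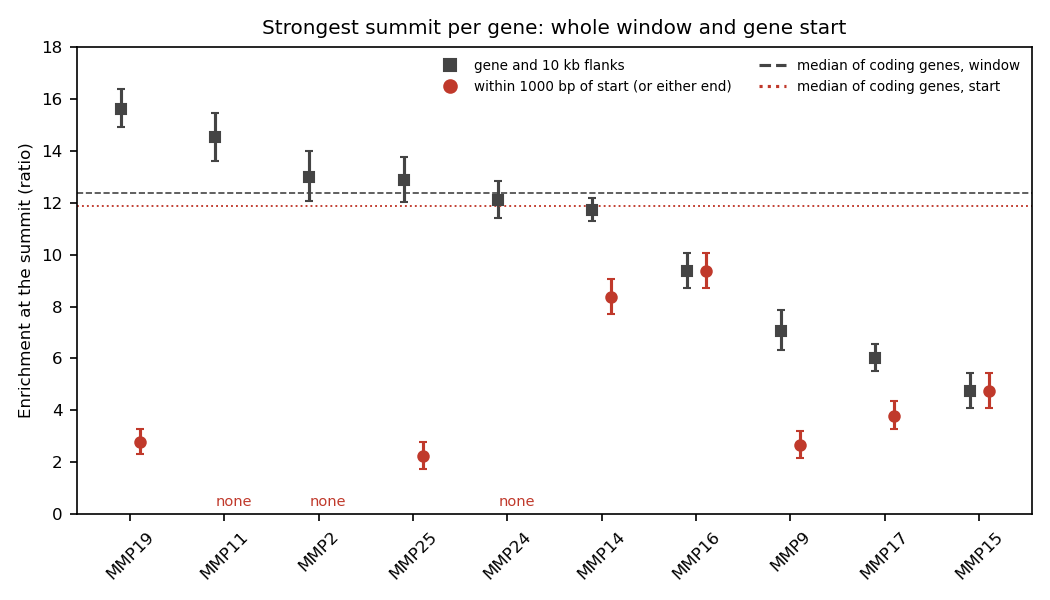
Highest enrichment (y axis, ratio) for each of the 10 genes over the gene and its 10 kb flanks (squares) and within 1000 bp of the start or, without a strand, either end (circles), with 95% counting intervals. Dashed and dotted lines are the medians of coding genes, 12.4 for the window and 11.9 for the start; all 7 circles lie below the dotted line, and 3 genes have no start summit.

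Over the whole windows the values lay closer to those of other genes, and most of the strongest sites stood at a neighbouring gene or away from any start. The highest enrichment in each window had a median of 11.9 over the 10 genes beside 12.4 over all coding genes with a summit. The strongest summit of the window lay within 1000 bp of the gene's own start at 2 of 10 genes, MMP15 and MMP16, against 47.6% of coding genes. It lay at the start of another gene, and not at its own, at 5 of 10 genes, against 17.4%, and near no gene start at 3 of 10, against 35%. Taking all 51 summits, 12 lay within 1000 bp of another gene's start and had a median enrichment of 8.64. The 9 summits near an own start had a median of 2.81; 1 of these, at MMP16, is also among the 12. The 31 summits near neither had a median of 2.77. Summits near the starts of coding genes in general had a median of 9.47.

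**Figure D3:**
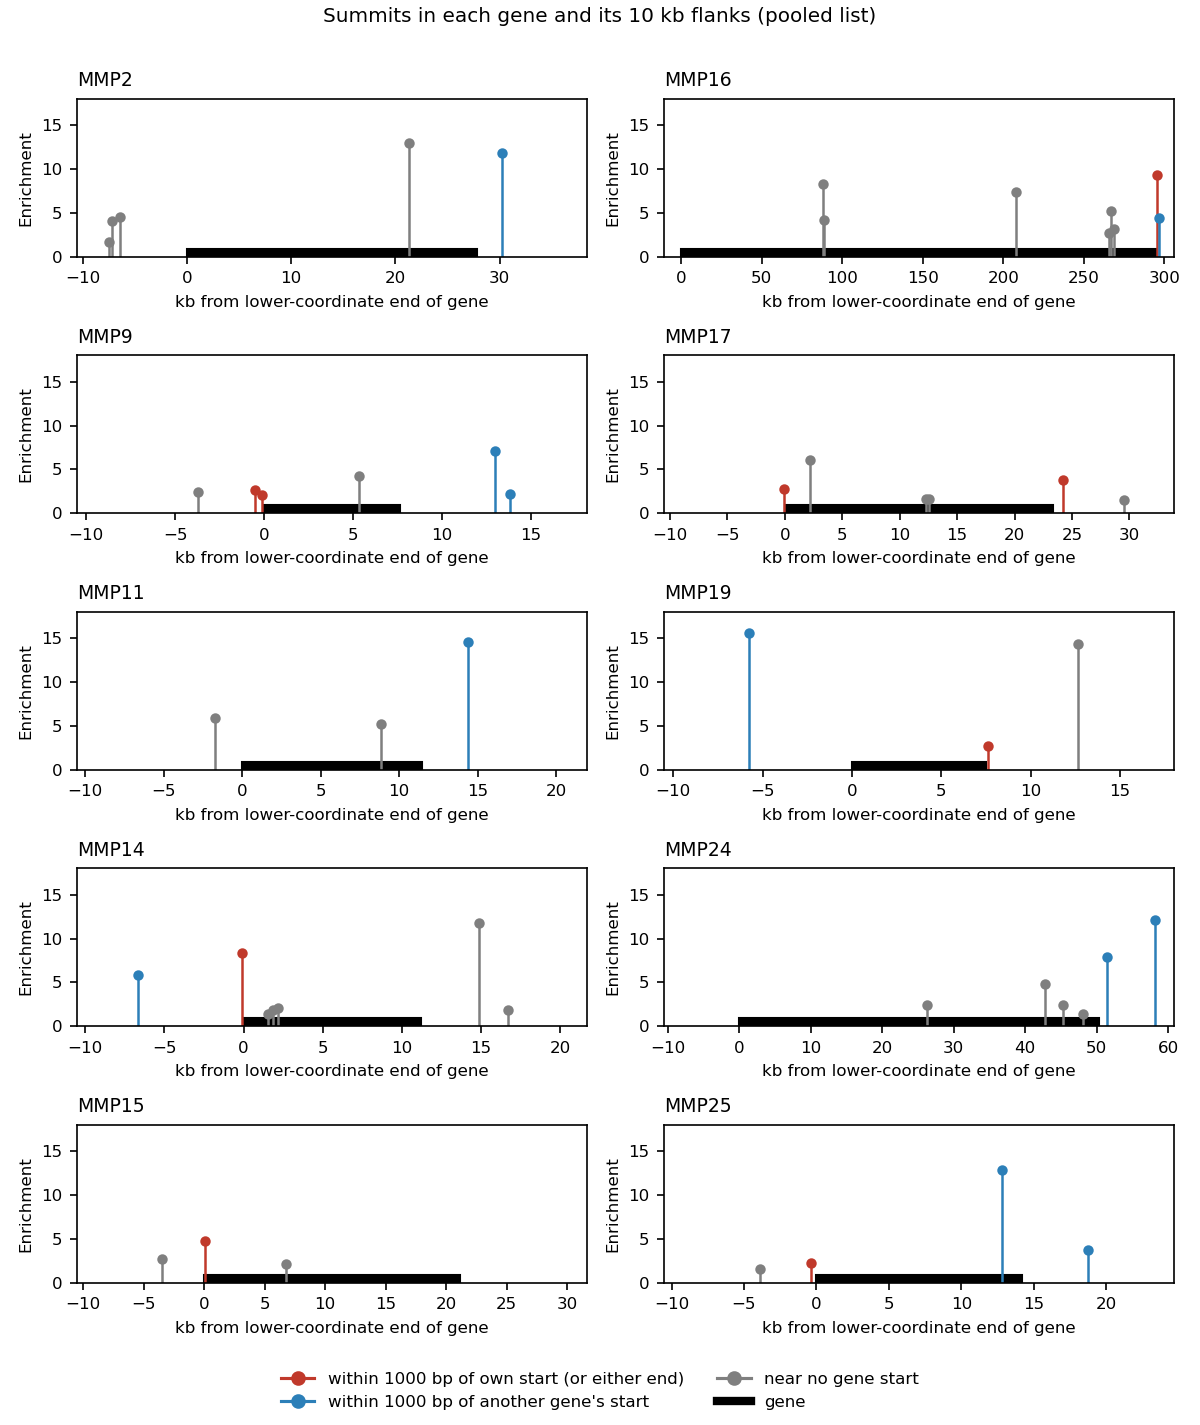
Enrichment of each summit (y axis, ratio) against distance from the lower-coordinate end of the gene (x axis, kb), 1 panel per gene with the gene drawn as a black bar and 10 kb on either side. Red summits lie within 1000 bp of the gene's own start or end, blue ones within 1000 bp of another gene's start and grey ones near no start; the tallest summit is blue in 5 panels (MMP9, MMP11, MMP19, MMP24 and MMP25).

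Among the transmembrane enzymes, MMP14 (chr14:22836585-22847758) had the summit with the most fragments of all 51. The summit at its start, 83 bp before it, within chr14:22836281-22836993, had an enrichment of 8.37 on 621 fragments, where the background nearby was 73.3. A group of 3 weak summits followed inside the gene, 1.52 to 2.14 kb past the start, with enrichments of 1.38 to 2.08. The largest site lay 3.71 kb beyond the far end of the gene, in chr14:22850993-22851833, near no gene start. Its pileup was 2601 (95% counting interval 2502 to 2703), at percentile 99.0 of all summits, and its enrichment was 11.7. The local background there was 221.0 fragments, 10.9 times the genome-wide background of 20.3, so the site ranked higher by pileup than by enrichment, where it stood at percentile 93.0. A weaker summit with 405 fragments and an enrichment of 1.89 lay 5.5 kb beyond the same end. On the other side, 6.69 kb before MMP14, a summit with an enrichment of 5.88 lay 6 bp from the start of MRPL52, which encodes a protein of the mitochondrial ribosome.

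MMP15 (chr16:58025754-58046901) was the plainest of the windows. Its strongest summit lay 78 bp past the start, in chr16:58025499-58026628, with an enrichment of 4.73 on 188 fragments. The other 2 summits, 3.47 kb before the start and 6.75 kb inside the gene, had enrichments of 2.76 and 2.17. Its highest value stood at percentile 10.6 of coding genes, the lowest of the 10, and all 3 summits lay closer to its own start than to that of any other coding gene.

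MMP16 (chr8:88032011-88327483) is the longest of the genes and had its strongest summit at 1 end. At 214 bp beyond the higher-coordinate end, in chr8:88327205-88328988, the enrichment was 9.37 with a pileup of 741, and a lesser summit of the same interval, 1.29 kb beyond the end, had 4.42 and 350. An end of the noncoding gene LOC105375630 lay 147 bp from the stronger of these, so the summit cannot be assigned to either gene from its position. The other 6 summits were inside the gene. A pair in 1 interval, 88.1 and 88.7 kb from the lower-coordinate end, had enrichments of 8.32 and 4.15, and another summit at 208.1 kb had 7.41. A looser group of 3, between 27.0 and 30.0 kb from the higher-coordinate end, had 2.77, 5.21 and 3.19 with pileups of 58, 110 and 67; their background equalled the genome-wide value. The enrichment of 8.32 inside the gene therefore rested on 204 fragments, whereas 9.37 at the end rested on 741.

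MMP24 (chr20:35226690-35276998) contrasted with the other transmembrane enzymes. No summit lay within 1000 bp of its start, and the nearest was 26.3 kb into the gene, with an enrichment of 2.44 on 51 fragments. The 3 other summits inside the gene lay toward its far end, 2.27 to 7.53 kb from it, and reached an enrichment of 4.78 on 272 fragments. Past that end stood the sites of other genes. A summit 30 bp from the start shared by MMP24OS and MMP24-AS1-EDEM2, genes on the opposite strand, had an enrichment of 7.90 on 630 fragments. The strongest of the window had an enrichment of 12.1 (11.4 to 12.8) on 1106 fragments, and lay 24 bp from a start of EIF6, which encodes a factor of the large ribosomal subunit; the start of the noncoding gene FAM83C-AS1 was 455 bp away. None of the 6 summits had MMP24 as its nearest coding gene start.

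The GPI-anchored enzymes each had a weak summit at an end. At MMP17 (chr12:131828393-131851771) the summit 78 bp below the lower-coordinate end had an enrichment of 2.81 on 232 fragments, and the summit 817 bp above the other end had 3.79 and 186. The strongest site of the window lay inside the gene, 2.19 kb from the lower-coordinate end, in a called region 916 bp long, with an enrichment of 6.02 (5.53 to 6.55) on 548 fragments. By fragments the summit at the lower end thus exceeded that at the upper end, while by enrichment the order was the reverse, since the local backgrounds were 82.0 and 48.4 fragments. The remaining 3 summits of MMP17 had enrichments of 1.56 to 1.62 and pileups of 57 to 65. No summit of its window lay at the start of another gene.

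At MMP25 (chr16:3046561-3060726) the summit nearest an end, 348 bp below the lower-coordinate end, had an enrichment of 2.22 on 76 fragments. Its −log10 q was 8.32, the lowest among the best start summits of the 7 genes. Much stronger was a summit inside the gene, 1.34 kb from the higher-coordinate end in chr16:3058839-3059732, with an enrichment of 12.9 (12.0 to 13.8) on 861 fragments. It lay 19 bp from the shared start of MMP25-AS1, a noncoding gene antisense to MMP25, and LOC124900372. A summit with an enrichment of 3.69 lay 4.59 kb beyond the gene, 86 bp from a start of IL32, which encodes an inflammatory cytokine.

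The gelatinases differed from each other. MMP2 (chr16:55478830-55506691) had no summit within 1000 bp of either end, and its nearest lay 2.4 kb above the higher-coordinate end, 19 bp from an end of LPCAT2, an acyltransferase gene, with an enrichment of 11.8 on 371 fragments. Inside MMP2 a single summit, 6.52 kb from the higher-coordinate end in chr16:55499885-55500663, had an enrichment of 13.0 (12.1 to 14.0) on 709 fragments, at percentile 95 of all summits by enrichment. It was the strongest of the 22 summits inside any of the genes by enrichment, next to MMP25 with 12.9, and these intervals overlap. Below the gene, 6.44 to 7.47 kb from the lower-coordinate end, 1 interval of 1463 bp held 3 summits with enrichments of 1.66, 4.04 and 4.57. An end of MMP2 was the nearest coding gene start or end to the summit inside it; exon and intron positions were not used here.

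At MMP9 (chr20:46008908-46016561) the interval at the lower-coordinate end, chr20:46008244-46008914, held summits 533 and 140 bp below the end, with enrichments of 2.65 and 2.04 and pileups of 98 and 76. A summit inside the gene had an enrichment of 4.26 on 138 fragments, and 1 placed 3.69 kb below the gene had 2.4 and 72. The strongest, 5.34 kb above the gene, had an enrichment of 7.07 (6.33 to 7.86) on 333 fragments. It lay 217 bp from the start of SLC12A5, a potassium-chloride cotransporter gene, and 170 bp from that of SLC12A5-AS1. Of the 4 summits nearer to MMP9 than to another coding gene start, none exceeded 4.26.

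The secreted enzymes MMP11 and MMP19 had the highest enrichments of the 10 windows, at their neighbours; by pileup MMP14 was above both, with 2601 fragments, and MMP24, with 1106, was above MMP11. For MMP11 (chr22:23772849-23784316) the strongest summit, 2.94 kb beyond the gene, had an enrichment of 14.5 (13.6 to 15.5) on 948 fragments. It lay 288 bp from the start of SMARCB1, which encodes a core subunit of the SWI/SNF chromatin remodelling complex. The summits before and inside MMP11 had enrichments of 5.93 and 5.27 and pileups of 142 and 131, and the former, 1.70 kb before the start, was the nearest to it. For MMP19 (chr12:55835433-55842936) a summit 5.78 kb below the gene had an enrichment of 15.6 (14.9 to 16.4) on 1797 fragments. It lay 70 bp from a start of DNAJC14, a heat shock cochaperone gene, and 49 bp from an end of the pseudogene TMEM198B. A site 5.15 kb above MMP19, in chr12:55847633-55848467, had 14.3 and 1152 with no gene start within 1000 bp. The summit at the end of MMP19 itself, 82 bp above the higher-coordinate end, had 2.76 and 127.

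**Figure D4:**
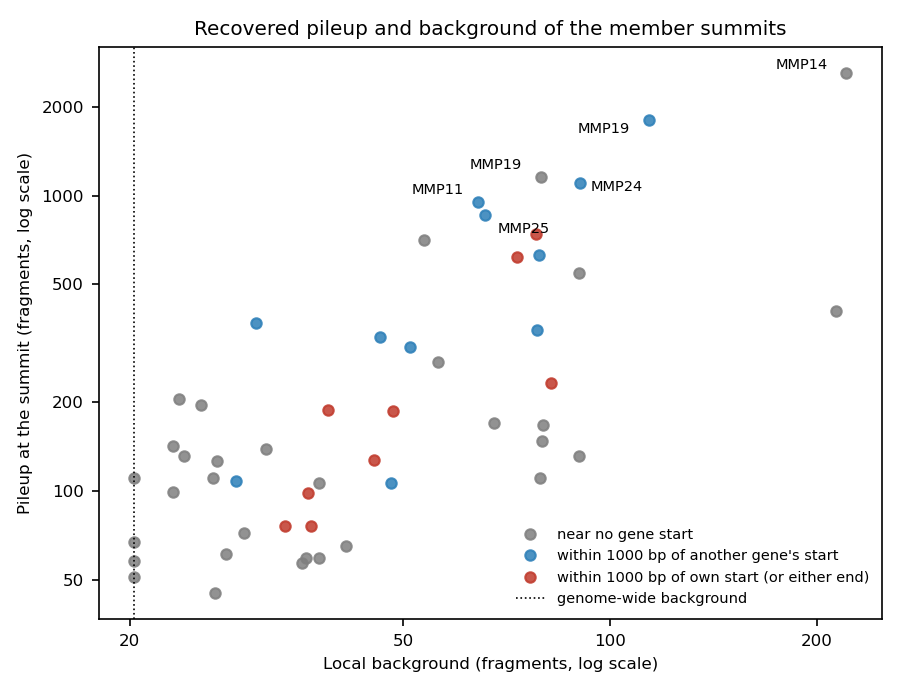
Pileup at the summit against local background (both in fragments, log axes) for the 51 summits, coloured as near the gene's own start (red), near another gene's start (blue) or near none (grey); the dotted line is the genome-wide background of 20.3 fragments. Summits above 800 fragments are named by the gene in whose window they lie, and none of these 6 is red.

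The local background, the divisor of each enrichment, differed between these sites. It was above the genome-wide value at 47 of the 51 summits, and the other 4 were 3 inside MMP16 and 1 inside MMP24. Over all summits on autosomes, X and Y, 53.6% were at the genome-wide value. Of the 51, 14 (27.5%) had a −log10 q below 10, beside 25.6% of all summits, and the values ranged from 1.83 to 1751. Intervals were between 257 and 1784 bp long.

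Sites lay on both sides of the window edge. Just inside it, the MRPL52 site of MMP14 lay at 6.69 kb and the EIF6 site of MMP24 at 7.80 kb from the gene. Just outside it, a summit 11.2 kb below MMP24 had an enrichment of 7.55, 1 at 11.5 kb below MMP14 had 9.26, 1 at 13.4 kb above MMP15 had 1.83, 1 at 13.5 kb below MMP2 had 8.54 and 1 at 13.6 kb above MMP17 had 10.2. Of these 5 only the site above MMP17 exceeded the highest value of its own window. Farther out, the nearest summits below MMP9, MMP19 and MMP15 did so too. They lay at 15.2, 17.6 and 24.5 kb, with enrichments of 10.6, 17.6 and 8.19. No other nearest summit outside a window did. The nearest summits outside the window of MMP16 were 53.6 and 227.2 kb away.

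Genes that act on or with these enzymes were examined by the same start rule, under which 65.9% of coding genes had a summit; the lists are small, and their shares of 80%, 75% and 85.7% were not tested against it. Among the inhibitors, 4 of 5 had a summit near the start, with TIMP1 at an enrichment of 13.2, RECK, a membrane-anchored inhibitor, at 9.71, TIMP2 at 7.25 and TIMP3 at 3.99; TIMP4 had none. Of 4 proprotein convertases, which cut the propeptide of membrane-type enzymes and MMP11, 3 had one: PCSK5 had 12.6, PCSK7 11.5 and FURIN 2.27, whereas PCSK6 had none there and up to 20.6 elsewhere in its window. FURIN had 186 fragments at its start, and by enrichment it stood at percentile 6.44 of coding genes with a start summit. Of 7 partner and clearance genes, 6 had one, led by the integrin gene ITGAV with 14.7, the sheddase gene ADAM17 with 13.8, BSG with 12.4 and ITGB1 with 12.3, while CLDN1 had no summit in its window.

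The other metalloproteinase genes were read in the same way. On chromosome 11, 4 of 9 had a summit near the start, MMP10 with an enrichment of 9.47, MMP1 with 7.69, MMP7 with 5.30 and MMP3 with 5.16. Among MMP21, MMP23B, MMP26 and MMP28 only MMP21 had one, with 1.53. These shares, 44.4% and 25%, stand beside 65.9% of coding genes, and the lists of 9 and 4 genes were not tested against the members. Among genes with a strand, where only the start counted, 3 of 8 of these other genes (MMP7, MMP10 and MMP21) and 2 of 4 members had a start summit. The median start enrichment was 6.5 for the 4 genes on chromosome 11 and 3.79 for the 7 members with a start summit. In fragments the 4 genes lay on both sides of the members' median of 188. MMP1 had 324 and MMP10 230, whereas MMP7 had 112 and MMP3 109.

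**Figure D5:**
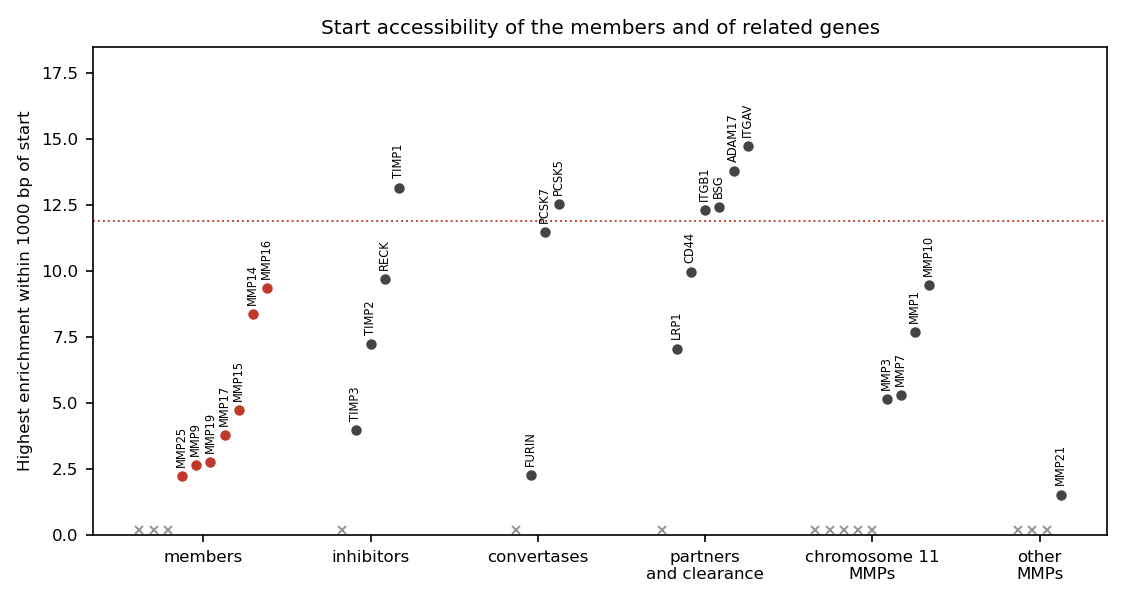
Highest enrichment within 1000 bp of the start, or of either end without a strand (y axis, ratio), for the 10 members (red) and for the fixed lists of related genes (grey points); crosses at the base are genes with no such summit. The dotted line is the median of coding genes, 11.9, which none of the members reached and which TIMP1, PCSK5, ITGB1, BSG, ADAM17 and ITGAV exceeded.

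Markers of the labelled cell type were read in the same way. Of 8 mesenchymal markers, 6 had a summit near the start, or near either end without a strand (75%, beside 65.9% of coding genes). FN1 led with an enrichment of 15.1, followed by CCN2 with 9.61 and CDH2 with 8.95, whereas THY1 and PRRX1 had none. The median over the 6 was 8.77, below the 11.9 of coding genes with a start summit, which only FN1 exceeded. By pileup the picture differed, with a median of 768 for coding genes with a start summit. VIM (2703 fragments), LGALS1 (2554), FN1 (1216) and CCN2 (1206) were above it, and CDH2 (561) and TWIST1 (153) were below. By the same rule a summit was present at 1 of 6 epithelial markers (EPCAM, 2.11) and 1 of 4 endothelial markers (CLDN5, 1.70). Of 5 blood markers, 2 had one (CD3E, 14.5, and SPI1, 8.44). No strand was used for EPCAM, CD3E, SPI1 or CLDN5, so each of these summits may lie at the far end of its gene. CDH1, PTPRC, CDH5 and PECAM1 had none at the start, but their windows held summits of up to 12.5, 10.1, 9.41 and 16.0. Over whole windows the median of the highest enrichment was 9.73 for the mesenchymal list, below the 12.5, 13.3 and 11.6 of the epithelial, blood and endothelial lists. The mesenchymal list thus had the highest share of start summits and the lowest window median. Start enrichments did not follow the share. Their median was 8.77 for the mesenchymal list and 11.5 for the 2 blood markers, with 2.11 and 1.70 at the single epithelial and endothelial markers. This order holds for enrichment only. In fragments CD3E had 671 and SPI1 515, both below VIM, LGALS1, FN1 and CCN2 and both above TWIST1, with CDH2 between them.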

How the data were processed

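ATAC-seq was measured in 12 libraries, 4 for each of 3 collagen concentrations. Per the submitters' processing notes, fastp 0.20.0, Bowtie2 2.4.3, deepTools 3.5.0, SAMtools and MACS2 2.2.7.1 were used with build hg38; their roles, filters, the treatment of duplicates and any control are not given in the sources used here. The authors deposited 1 peak list in which each line gives an enrichment (a ratio over local background), a score, −log10 p and −log10 q and a summit. These deposited ratio, score and −log10 values were used as they stand. Summit positions were taken as start plus offset and written 1-based. Depth per library is unknown.

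Genes and their ends came from the RefSeq table (GRCh38.p14). Strand and starts came from the RefSeq promoter table, which covered 15842 of 20037 coding genes; either gene end was used for the rest. The members, the lists and the window rules were chosen with earlier results of these data known. Named genes were all members, up to 5 genes per fixed list by highest start enrichment or absence of a summit, and genes with a start within 1000 bp of a member's summit. For the mesenchymal markers, every gene with a start summit was also named with its pileup. Pileup and background were solved from enrichment = (pileup + 1)/(background + 1) and a Poisson upper tail, a model tested on the values: 99.96% of 188019 lines gave a whole pileup within 0.05. On 5000 lines simulated from the same model the pileup was recovered in 100%, which checks the solving step and not the model. Intervals are exact Poisson at 95%. No test between groups was run, because the list holds no value per group. Protein features and motifs around summits, which had been planned, were not analysed here. Python 3.11.15, numpy 2.4.6, scipy 1.17.1 and pandas 2.3.3 were used. Alternatives were windows, a −log10 q minimum of 10, 1 summit per interval, gene ends, and other measures.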

Additional observations from a re-analysis of the deposited data

How the results depend on the processing

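No paired analysis was possible because the pooled list has no columns per library, and for the same reason no replicate could be left out. A value was taken as moved when it changed by over 1.5 times. The number of genes with a start summit was between 6 and 9 under the 7 alternatives, and by this rule it moved under none of them. It followed the share of coding genes, which was 55.5% with the narrowest distance to the start, 250 bp (6 genes), and 78.8% with the widest (9). The total of 51 summits became 22 with no flank, 33 with a flank of 2 kb and 114 with 50 kb; fewer or more bases searched is the construction of these settings. The median highest enrichment of 11.9 became 5.27 with no flank, over 9 genes since MMP19 had no summit inside, and 6.96 with 2 kb. It became 6.02 when only summits nearest to the gene's own start counted, a setting chosen after seeing the data. That setting was possible for 9 genes, since MMP24 had none, and no value over all coding genes is given for it. Over all coding genes the median highest enrichment was 8.59 with no flank and 11.9 with 2 kb. The members' median enrichment was thus below that of coding genes under every flank tried. By pileup, at the flank of 10 kb, the median highest value was 801 for the members and 779 for coding genes with a summit. The median percentile of the highest value was 46.5 by enrichment, 50.8 by pileup and 51.0 by −log10 q. The pileup model without the added 1 gave whole pileups in 9.79% of lines. Of 49 values of single genes under the alternatives, 10 moved, all with another flank. Motifs around summits could not be searched for want of a genome.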
